A study of Mus musculus with 9 samples.

Results

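The vacuolar ATPase (V-ATPase) and the proteins of the lysosome that it acidifies are described here in erythroblasts, the nucleated precursors of red cells, from mouse fetal livers at stage E14.5. The group was set as a list of 36 genes. Of these, 16 encode the proton pump and its accessory proteins and 20 encode other lysosomal proteins (hydrolases, membrane proteins and soluble cofactors). A gene was read from the probe set that carried its symbol and no other, and where several did, from the one with the highest mean over all arrays. By this rule 35 of the 36 genes had a probe set, out of 19938 genes named in this way on the array. Atp6v0c, the main proton-carrying ring subunit of the pump, had none and is not analysed here.

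RNA was measured on whole-transcript arrays in 3 genotypes with 3 biological replicates each, 1 array per replicate. The Th3 allele has lost the adult genes for beta globin. Th3/Th3 embryos are homozygous for it, Th3/+ embryos have it on 1 chromosome beside an intact locus, and wild type (+/+) embryos have none. All genotypes came from crosses between Th3/+ parents on a 129SV background backcrossed for 9 generations to C57BL/6, and all cells were sorted for CD71, Ter119 and high forward scatter. Each RNA was amplified from 35 ng. Pooling of embryos within a replicate and shared litters are not stated in the labels.

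The V-ATPase has a peripheral part, V1, which hydrolyses ATP, and a membrane part, V0, through which protons pass into the lumen. The low pH it builds up activates the acid hydrolases of the lysosome and lets transferrin give up its iron in endosomes. The pump itself takes part in the signalling of nutrients to mTORC1 at the lysosomal surface. Many genes for the pump and for lysosomal proteins carry an E-box motif known as a CLEAR element near their start, to which TFEB and its relatives bind. In maturing erythroid cells lysosomes and autophagy are known for the removal of organelles.

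Adult beta globin, the targeted gene product, checked the labels. The first of its shared probe sets (listed for Hbb-bt, Hbb-bs, Hbb-b2 and Hbb-b1) gave log2 signals of 9.83, 10.09 and 8.49 on the Th3/Th3 arrays, 13.81, 13.76 and 13.76 on the Th3/+ arrays and 13.81, 13.86 and 13.84 on the wild type arrays. The wild type and Th3/+ values lay close to the top of the scale, which ended at 14.2, so a difference between them cannot be resolved there. Array medians lay between 4.95 and 5.01, and rank correlations between arrays of the same genotype lay between 0.968 and 0.987. On the second principal component, with 16.7% of the variance, Th3/Th3 replicate 1 (25.5) and Th3/+ replicate 1 (20.5) stood apart from the other arrays (-14.9 to 7.7). Of 7 erythroid marker genes measured, 7 lay above the 40th percentile on every array. In Th3/Th3 cells 5 of them were called lower (71.4%), against 4.98% of all probe sets.

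RefSeq promoter windows, running from 250 bases before to 50 after the annotated start (GRCm38.p6), were at hand for 29 of the 36 genes, with 33 windows in all because Atp6v0c, Ctsa and Psap have several. The motif searched was the E-box CACGTG, with the longer CLEAR-type form TCACGTGA, which contains it, and an extended CLEAR form that has a further G before and C after that. Each of these reads the same on both strands. CACGTG occurred in at least 1 window of 11 of the 29 genes (37.9%), against 8.09% of the 27025 genes in the table. Counted by window, it was in 11 of 33 (33.3%), against 7.15% of 32851. TCACGTGA occurred in 6 genes (20.7%), against 1.12% of all genes, and in 6 windows (18.2%), against 0.974% of all windows. The extended form occurred in 0 genes and 0 windows, against 0.37% and 0.326%. The stretches shown are those of the 5 risen genes with CACGTG, and of Mcoln1, whose signal did not pass the test, with the motifs in capitals and the coding strand written 5′ to 3′.
Atp6v1a, chr16:44139364-44139411, minus strand: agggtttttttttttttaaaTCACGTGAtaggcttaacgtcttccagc
Atp6v0b, chr4:117887330-117887385, minus strand: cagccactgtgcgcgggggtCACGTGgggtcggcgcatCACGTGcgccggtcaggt
Atp6v0e, chr17:26676388-26676415, plus strand: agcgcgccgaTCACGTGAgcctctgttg
Ctsd, chr7:142387899-142388077, minus strand: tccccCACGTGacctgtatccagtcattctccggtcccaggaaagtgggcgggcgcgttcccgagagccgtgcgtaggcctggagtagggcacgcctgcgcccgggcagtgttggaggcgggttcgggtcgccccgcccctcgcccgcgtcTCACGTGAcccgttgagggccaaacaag
Lamp1, chr8:13159080-13159160, plus strand: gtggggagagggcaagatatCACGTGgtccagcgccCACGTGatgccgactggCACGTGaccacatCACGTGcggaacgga
Mcoln1, chr8:3500428-3500500, plus strand: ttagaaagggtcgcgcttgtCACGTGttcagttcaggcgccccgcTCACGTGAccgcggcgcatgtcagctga
The Lamp1 stretch held 4 copies of CACGTG, and those of Atp6v0b, Ctsd and Mcoln1 held 2 each. The other genes with CACGTG in a window were Atp6v0d1, Ctsa, Ctsl, Gaa and Glb1. By class, 4 of the 11 pump genes and 7 of the 18 other lysosomal genes with a window held it. Among genes tested on the arrays and with a window, 5 of the 7 that rose in Th3/Th3 held it, as did 6 of the 21 that did not rise. These counts leave out Atp6v1h and Atp6v1c1, which rose most, and Ctsb, which fell. A match of letters is a description of the sequence and not a sign that a factor binds there. The windows of Atp6v1b2, Atp6v1c1, Atp6v1g1, Atp6v1h, Atp6v0a2, Ctsb and Npc1 were not analysed here.

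In Th3/Th3 erythroblasts 7 of the 15 measured pump genes had higher signal than in wild type and 0 had lower signal, at an adjusted p under 0.05 in limma. Without wild type replicate 1 the number was 3, and without wild type replicate 2 it was 4. In those fits 8.47% and 8.19% of all probe sets were called in either direction. Atp6v1h and Atp6v1c1 rose most, by 3.39-fold and 2.13-fold. Of the 20 other lysosomal genes 2 rose, the protease gene Ctsd and the membrane protein gene Lamp1, and 1 fell, the protease gene Ctsb. This was 15% called against 12.3% of all probe sets, a share near the background. In all, 10 of 35 genes were called (28.6%), against 12.3% of the 17742 probe sets tested, and among all probe sets 7.31% were called higher and 4.98% lower. Without wild type replicate 1, 6 genes were called, against 8.47% of all probe sets. With the low-signal filter raised from the 40th to the 60th percentile, 11 genes were called, against 20.6% of the probe sets then tested. Gaa, Gusb, Glb1 and Lipa did not pass that filter, so fewer than 35 genes were tested. With all arrays and the main filter, 22 of 35 genes had an unadjusted p under 0.05, against 25.7% of all probe sets. By their means 25 of 35 were higher in Th3/Th3, against 49.9%. All 35 genes passed the filter on low signal, and 33 lay above its percentile on all 9 arrays (Lipa did so on 8 and Cd63 on 6). The median change was 0.49 on the log2 scale over the pump genes and 0.13 over the other lysosomal genes, against 0 over all probe sets. Since the signal is from bulk RNA, fewer cells of a kind and less RNA per cell cannot be told apart.

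The V1 genes held the largest rises. Atp6v1h encodes subunit H, which in yeast keeps free V1 from hydrolysing ATP. It had log2 signals of 7.34, 7.73 and 8.05 on the Th3/Th3 arrays, 5.76, 6.15 and 6.81 on the Th3/+ arrays, and 5.93, 5.68 and 6.23 on the wild type arrays. Every Th3/Th3 array lay above every other array, and the gene rose by 1.76 over wild type (3.39-fold, SE 0.28, adjusted p = 0.0036). Atp6v1c1 encodes subunit C, which joins the peripheral stalks to V0 and leaves when the pump comes apart. Its signals were 9.31, 9.78 and 9.93 in Th3/Th3, 8.46, 9.07 and 9.04 in Th3/+, and 8.11, 8.62 and 9.01 in wild type. The Th3/Th3 arrays again lay above all others, with a rise of 1.09 (2.13-fold, SE 0.26, adjusted p = 0.0263), but the spread within each genotype was wide. The adjusted p was 0.0833 without Th3/Th3 replicate 2, 0.0878 without Th3/Th3 replicate 3, 0.0858 without wild type replicate 1 and 0.0731 without wild type replicate 2.

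Atp6v1a encodes the catalytic subunit A. Its signals were 7.25, 7.45 and 7.68 in Th3/Th3, 6.41, 6.76 and 6.88 in Th3/+, and 6.42, 6.50 and 6.70 in wild type. The Th3/Th3 arrays did not overlap with the others, and the rise was 0.92 (1.89-fold, SE 0.16, adjusted p = 0.00621). Atp6v1f encodes subunit F of the central stalk. Its signals were 11.21, 10.85 and 10.66 in Th3/Th3, 10.30, 10.33 and 10.46 in Th3/+, and 9.86, 10.13 and 10.34 in wild type, a rise of 0.80 (1.74-fold, SE 0.16, adjusted p = 0.0121). A second Atp6v1f probe set rose by 0.77 (adjusted p = 0.0212). Atp6v1d, for subunit D, the rotating shaft beside F, had 11.20, 10.98 and 11.19 in Th3/Th3, 11.05, 10.95 and 10.77 in Th3/+, and 10.53, 10.89 and 10.62 in wild type. Its rise was 0.44 (1.36-fold, SE 0.12, adjusted p = 0.0442), close to the threshold. The call was lost under 11 of 20 alternative settings, among them leaving out Th3/Th3 replicate 1 or 3, Th3/+ replicate 2 or 3, or wild type replicate 1 or 3 (adjusted p = 0.051 to 0.141), or both arrays that stood apart (0.0973).

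The other V1 genes did not pass. Atp6v1b2, for the nucleotide-binding subunit B, averaged 9.48 ± 0.36 in Th3/Th3, 9.09 ± 0.23 in Th3/+ and 8.75 ± 0.31 in wild type (log2, SD, n = 3 each). Its difference from wild type was 0.74 (adjusted p = 0.0626), a larger difference than that of Atp6v1d, with a larger spread. It passed with the stricter filter (adjusted p = 0.041) and with quantile normalization (0.0488). Atp6v1g1 and Atp6v1e1 encode the peripheral stalk subunits G and E. Their differences were 0.28 (adjusted p = 0.0904) and 0.14 (adjusted p = 0.382), and both genes were among the brighter members in every genotype. Thus 5 of 8 V1 genes rose (62.5%, against 7.31% of all probe sets called higher), with a median change of 0.77 over the 8.

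**Figure D1:**
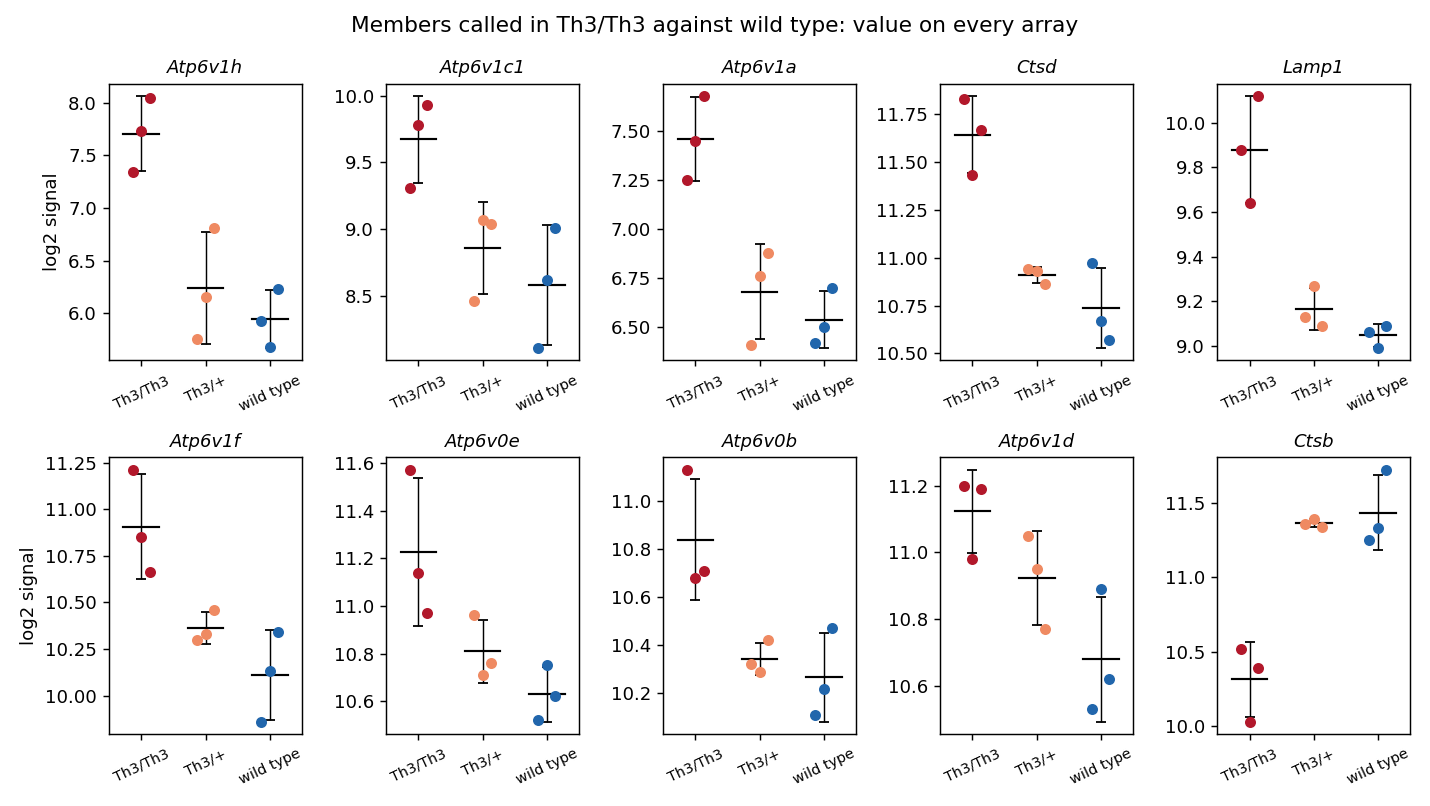
Log2 signal (y axis, a separate scale in each panel) of the 10 called genes on every array by genotype; points are arrays, horizontal bars the mean and vertical bars ± 1 SD (n = 3). The Th3/Th3 points of Atp6v1h lie between 7.34 and 8.05, above all others, and those of Ctsb lie between 10.03 and 10.52, below all others.

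In the V0 part 2 of 5 genes rose (40%, against 7.31% of all probe sets called higher), by 0.59 and 0.57. Atp6v0e encodes the small membrane subunit e. It had signals of 11.57, 11.14 and 10.97 in Th3/Th3, 10.96, 10.71 and 10.76 in Th3/+, and 10.52, 10.75 and 10.62 in wild type, a rise of 0.59 (1.51-fold, SE 0.15, adjusted p = 0.0317). Atp6v0b encodes a proton-carrying subunit of the rotor ring. It had 11.13, 10.68 and 10.71 in Th3/Th3, 10.32, 10.29 and 10.42 in Th3/+, and 10.11, 10.22 and 10.47 in wild type, a rise of 0.57 (1.49-fold, SE 0.14, adjusted p = 0.0288). For both genes Th3/Th3 replicate 1, which stood apart on the second principal component, was the highest array. Atp6v0b lost its call without that array (adjusted p = 0.0553), without it and Th3/+ replicate 1 (0.0648), and without wild type replicate 1 (0.101) or 2 (0.0896). Atp6v0e did not pass without Th3/Th3 replicate 2 (adjusted p = 0.0642), Th3/+ replicate 3 (0.0514), or wild type replicate 1 (0.106), 2 (0.0566) or 3 (0.0885).

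The remaining V0 genes gave differing values. Atp6v0d1, whose product couples the central stalk to the ring, differed by 0.49 (adjusted p = 0.172). Subunit a, which carries the path of the protons, has several isoforms. Atp6v0a1, for the a1 isoform, was 0.28 lower by its means, with 10.15 ± 0.14 in Th3/Th3 and 10.43 ± 0.17 in wild type (SD, n = 3 each, adjusted p = 0.199). Atp6v0a2, for the a2 isoform, gave -0.07 (adjusted p = 0.787) on its brighter probe set and 0.73 (adjusted p = 0.0283) on its dimmer one, so its probe sets disagree and no direction is given.

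Of the 2 accessory genes 0 were called, and their differences had opposite signs. Atp6ap1 encodes Ac45, which helps the pump assemble and find its place. It had signals of 9.25, 8.60 and 8.92 in Th3/Th3, 9.40, 9.41 and 9.58 in Th3/+, and 9.31, 9.32 and 9.74 in wild type. Every Th3/Th3 array lay below every wild type array, but the difference of -0.53 did not pass (adjusted p = 0.0978). Without Th3/Th3 replicate 1 and Th3/+ replicate 1 it was -0.70 and passed (adjusted p = 0.0402). Leaving out Th3/Th3 replicate 1 alone also gave -0.70 (adjusted p = 0.0321). Atp6ap2, for the prorenin receptor, differed by 0.40 (adjusted p = 0.143), close to the difference of Atp6v1d.

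Among the 12 hydrolase genes 1 rose and 1 fell, 16.7% called against 12.3% of all probe sets, a share near the background. Ctsd encodes cathepsin D, an aspartic protease. It had signals of 11.83, 11.43 and 11.67 in Th3/Th3, 10.94, 10.93 and 10.86 in Th3/+, and 10.97, 10.67 and 10.57 in wild type. The Th3/Th3 arrays lay above all others, and the rise was 0.91 (1.88-fold, SE 0.13, adjusted p = 0.00227). Ctsb encodes cathepsin B, a cysteine protease. It had 10.52, 10.03 and 10.39 in Th3/Th3, 11.36, 11.39 and 11.34 in Th3/+, and 11.25, 11.33 and 11.72 in wild type. All Th3/Th3 arrays lay below all others, and the gene fell by 1.12 (2.18-fold, SE 0.15, adjusted p = 0.00167). Cathepsins D and B, both bright in wild type cells, thus differed in direction.

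Macrophages, which surround erythroblasts in fetal liver and are rich in cathepsins, could pass a sort. Their markers moved in the direction of Ctsb and against that of Ctsd, which rose by 0.91. Of 15 macrophage marker genes tested 3 fell in Th3/Th3 (C1qb, Fcer1g and Tyrobp) and 0 rose, with a median change of -0.47. Thus 20% were called lower, against 4.98% of all probe sets. By replicate number, the summed linear signal of the 20 measured markers was 679, 758 and 673 on the Th3/Th3 arrays. It was 1371, 1213 and 846 on the Th3/+ arrays and 1039, 1146 and 876 on the wild type arrays. By their means 14 of the 15 tested markers were lower in Th3/Th3. The remaining measured markers, Csf1r, Mertk, Cd163, Mrc1 and Cd14, lay below the filter. In the same order of replicates, Ctsb gave 10.52, 10.03 and 10.39 on the Th3/Th3 arrays. It gave 11.36, 11.39 and 11.34 on the Th3/+ arrays and 11.25, 11.33 and 11.72 on the wild type arrays. The part of macrophage RNA in the fall of Ctsb was not tested. The list shares Cd68 and Ctss with lysosomal genes.

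The other 10 hydrolase genes did not pass. Their differences ranged from -0.20 for Gusb to 0.60 for Lipa. Lipa, for the acid lipase that splits cholesteryl esters and triglycerides, averaged 5.32 ± 0.42 in Th3/Th3, 5.35 ± 0.28 in Th3/+ and 4.72 ± 0.24 in wild type (SD, n = 3 each). Its 3 Th3/Th3 arrays lay above the wild type ones, and its adjusted p was 0.118. Gaa, which breaks down glycogen, differed by 0.38 (adjusted p = 0.157), Ctsa, the protective protein of sialidase and beta-galactosidase, by 0.29 (adjusted p = 0.173), Ctsz, an exopeptidase, by 0.25 (adjusted p = 0.454) and Ctsl, an endopeptidase, by 0.19 (adjusted p = 0.281). Glb1 (beta-galactosidase), Neu1 (sialidase) and Tpp1 (a tripeptidyl peptidase) differed by 0.07, 0.03 and 0.02, and Hexa (the alpha subunit of hexosaminidase) by -0.18. The median over the 12 hydrolase genes was 0.13.

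Of the 5 membrane genes 1 rose (20%, against 7.31% of all probe sets called higher), Lamp1. It encodes a heavily glycosylated protein that lines the lysosomal membrane. It had signals of 9.88, 9.64 and 10.12 in Th3/Th3, 9.13, 9.27 and 9.09 in Th3/+, and 9.06, 8.99 and 9.09 in wild type. The wild type and Th3/+ arrays lay close together and the Th3/Th3 arrays above both, with a rise of 0.83 (1.78-fold, SE 0.14, adjusted p = 0.00432). Its relative Lamp2, needed for chaperone-mediated autophagy, differed by 0.51 (adjusted p = 0.108), with 7.49, 7.87 and 7.62 in Th3/Th3 and 7.09, 7.48 and 6.87 in wild type, and passed without wild type replicate 2 (0.68, adjusted p = 0.0492). Npc1, which exports cholesterol, differed by 0.34 (adjusted p = 0.191, and 0.0457 without Th3/Th3 replicate 1 and Th3/+ replicate 1 together), and Mcoln1, a calcium channel, by -0.11 (adjusted p = 0.598).

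Cd63, a tetraspanin of late endosomes and lysosomes, cannot be placed. Its signals were 3.62, 6.83 and 4.10 in Th3/Th3, 5.00, 5.77 and 5.69 in Th3/+, and 4.28, 6.78 and 6.75 in wild type. Arrays of the same genotype spread over several log2 units, and the interval of its difference from wild type ran from -3.04 to 0.86 (95%). The 3 cofactor genes did not pass. Npc2, which hands cholesterol to Npc1, differed by 0.32 (adjusted p = 0.154), Psap, the precursor of the saposins that help lipid hydrolases, by -0.27 (adjusted p = 0.224), and Grn, for progranulin, by -0.38 (adjusted p = 0.182).

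**Figure D2:**
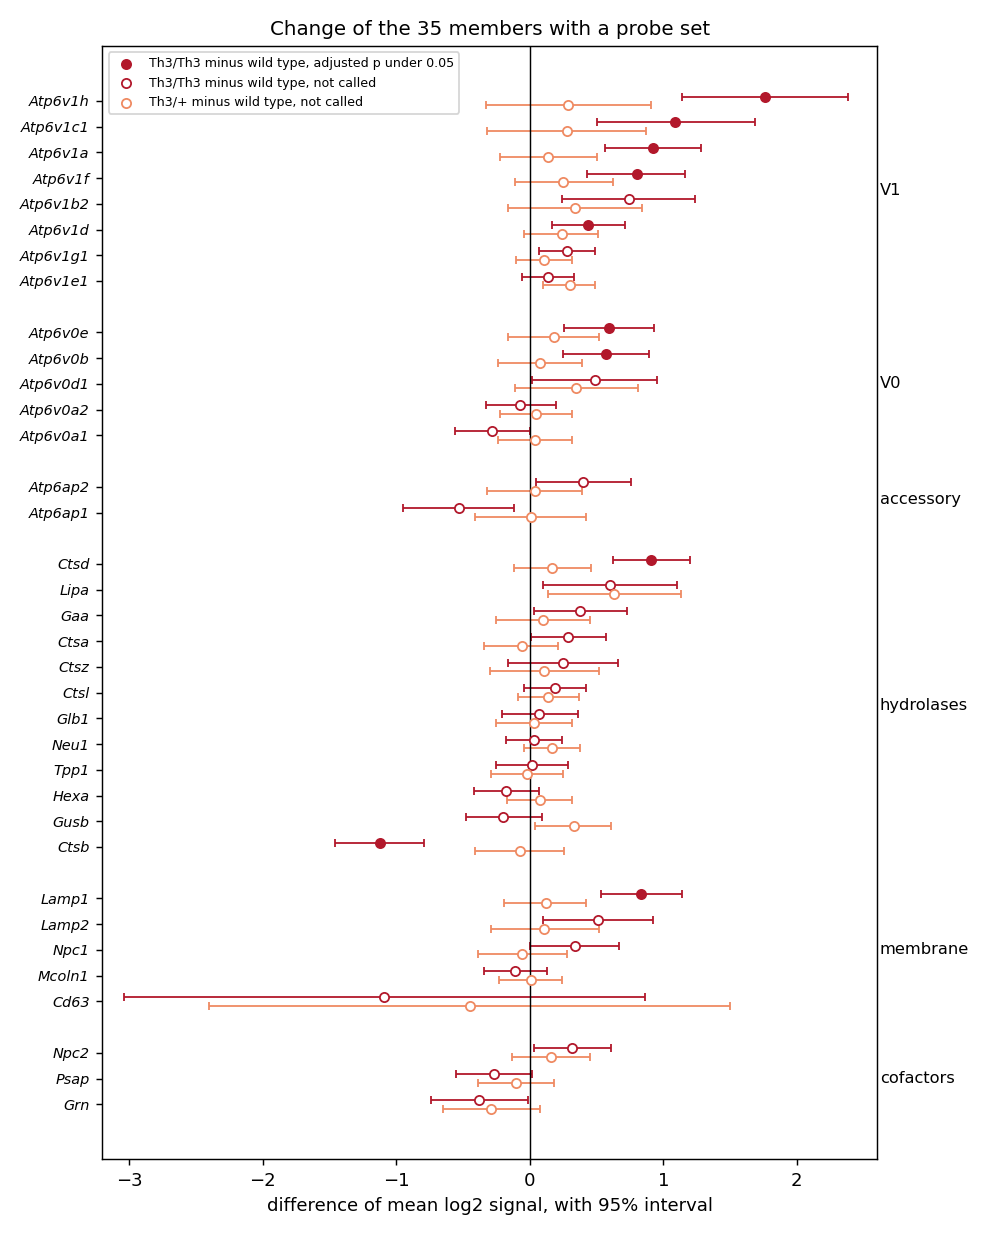
Difference of mean log2 signal from wild type (x axis, with the 95% interval) for the 35 measured genes, in rows by class, with Th3/Th3 above Th3/+ in each row; filled points had an adjusted p under 0.05. V1 genes lie to the right of 0 in Th3/Th3, with Atp6v1h farthest at 1.76, while Ctsb lies at -1.12 and the interval of Cd63 is the widest.

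Counted without a model, 17 of the 35 genes were higher on every Th3/Th3 array than on every wild type array, and 4 were lower on every one. Among all probe sets these shares were 15.4% and 12.1%. Of the pump genes 9 of 15 were higher without overlap and 1 was lower, and of the other lysosomal genes 8 of 20 were higher and 3 were lower. On each array, the median over the pump genes of the difference from the wild type mean was 0.55, 0.40 and 0.44 in Th3/Th3, 0.06, 0.20 and 0.15 in Th3/+, and -0.15, -0.04 and 0.20 in wild type. The same median over the other lysosomal genes was 0.14, 0.17 and 0.05 in Th3/Th3, 0.04, 0.11 and 0.07 in Th3/+, and 0.01, 0.02 and 0 in wild type. The pump median exceeded the other median by 0.41, 0.23 and 0.39 on the Th3/Th3 arrays, by 0.02, 0.09 and 0.09 on the Th3/+ arrays, and by -0.15, -0.05 and 0.20 on the wild type arrays. No p-value is given for these medians because the genes were chosen with results known. The erythroid markers moved the other way: their mean log2 signal was 10.42 to 10.72 on the Th3/Th3 arrays, 11.08 to 11.18 on the Th3/+ arrays and 11.17 to 11.31 on the wild type arrays, and Tfrc, which encodes the sorted antigen CD71, fell by 1.12 (adjusted p = 0.000192). The part of this shift in the pump's rise was not tested.

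**Figure D3:**
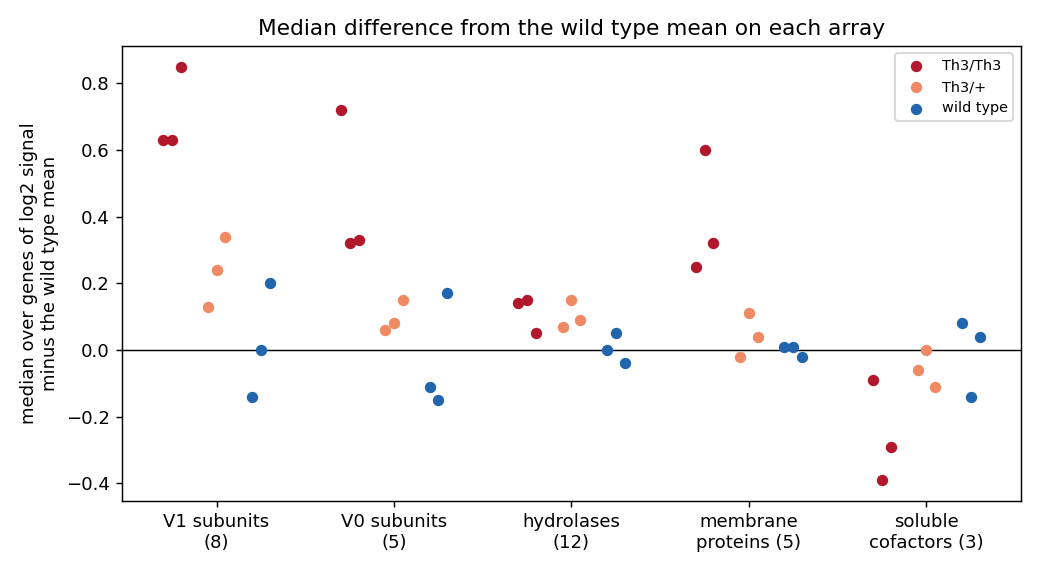
Median over the genes of each class of log2 signal minus the wild type mean (y axis, log2 units), for each array as 1 point, by class and genotype; the accessory pair is not drawn. The V1 medians are 0.63 to 0.85 on the Th3/Th3 arrays, 0.13 to 0.34 on the Th3/+ arrays and -0.14 to 0.20 on the wild type arrays, and the hydrolase medians lie between -0.04 and 0.15 on all arrays.

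Th3/+ cells were set against wild type to ask what loss of the adult genes on 1 allele goes with. Of the 35 genes 0 were called, as were 0.0282% of all probe sets (5 of 17742), and at an unadjusted p under 0.05 there were 3 members (Atp6v1e1, Lipa and Gusb) and 3.64% of all probe sets. The smallest adjusted p was 0.957, for Atp6v1e1, whose signals were 11.75, 11.67 and 11.62 in Th3/+ and 11.25, 11.56 and 11.35 in wild type. Its 3 Th3/+ arrays lay above the wild type ones, by 0.30 in the mean (interval 0.10 to 0.49). In all, 3 genes were higher without overlap (background 4.4%) and 0 lower (background 3.22%). All 15 pump genes had a higher mean in Th3/+, by 0.01 to 0.35, as did 13 of the 20 other genes, against 51.9% of all probe sets. The pump medians by array overlapped, however, with 0.06, 0.20 and 0.15 in Th3/+ and -0.15, -0.04 and 0.20 in wild type. For genes that rose in Th3/Th3 the intervals in Th3/+ were wide for Atp6v1h (-0.33 to 0.91) and Atp6v1c1 (-0.32 to 0.87). They ran from -0.22 to 0.50 for Atp6v1a, -0.12 to 0.46 for Ctsd and -0.19 to 0.42 for Lamp1. The upper limit for Atp6v1h equals the rise of Ctsd in Th3/Th3 (0.91), so a change of that size in Th3/+ is not excluded for Atp6v1h.

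Set against Th3/+ cells, Th3/Th3 cells had 6 of 35 genes called (17.1%), 4 higher and 2 lower, against 7.27% of all probe sets, 4.01% higher and 3.26% lower. With the filter raised to the 60th percentile 6 genes were called (5 of them shared), against 12.6% of the probe sets then tested. Gusb was among the genes that this filter left out. This comparison shares its Th3/Th3 arrays with the one against wild type. Atp6v1h was higher by 1.47 (2.77-fold, SE 0.28, adjusted p = 0.0131), Atp6v1a by 0.78 (1.72-fold, adjusted p = 0.0199), Ctsd by 0.74 (1.66-fold, adjusted p = 0.00961) and Lamp1 by 0.72 (1.64-fold, adjusted p = 0.0136). Ctsb fell by 1.05 (2.07-fold, adjusted p = 0.00406). Gusb, for beta-glucuronidase, fell by 0.52 (adjusted p = 0.0407), with 4.95, 4.96 and 4.97 in Th3/Th3, 5.19, 5.46 and 5.79 in Th3/+, and 5.12, 5.17 and 5.17 in wild type. The Gusb values in Th3/+ were spread out and those in the other genotypes were tight, and its call was lost under 14 of 19 alternatives, among them each omission of 1 array other than Th3/+ replicate 1 (adjusted p = 0.0635 to 0.113). Atp6v1a did not pass without Th3/Th3 replicate 2 (adjusted p = 0.0582) or 3 (0.0599) or Th3/+ replicate 1 (0.0579) or 2 (0.0626), Atp6v1h without Th3/+ replicate 2 (0.0577) and Lamp1 without Th3/+ replicate 3 (0.0542). Without Th3/+ replicate 1 and Th3/Th3 replicate 1 together, the adjusted p was 0.0546 for Ctsd and 0.0648 for Lamp1. Of the other genes that rose over wild type, Atp6v0b differed from Th3/+ by 0.50 (adjusted p = 0.0707), Atp6v1f by 0.54 (adjusted p = 0.0839), Atp6v1c1 by 0.82 (adjusted p = 0.109), Atp6v0e by 0.41 (adjusted p = 0.147) and Atp6v1d by 0.20 (adjusted p = 0.39). Tested against the midpoint of Th3/Th3 and wild type, Th3/+ had 0 of 35 genes called (background 0.0789%), 7 at an unadjusted p under 0.05 (background 7.83%) and a smallest adjusted p of 0.261.

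Related genes outside the 36 were read from 8 further lists, in Th3/Th3 against wild type. Over all probe sets 12.3% were called, 7.31% higher and 4.98% lower. The other isoforms of the pump, several of which belong to kidney, bone or sperm, had 0 of 5 tested genes called. The nearest were Atp6v0e2 at -0.12 (adjusted p = 0.44) and Tcirg1, for the a3 isoform of osteoclasts, at -0.13 (adjusted p = 0.466). Among genes for assembly and regulation of the pump 0 rose and 2 fell of 8 tested (25% called). Ncoa7, which binds the pump, had signals of 6.86, 7.15 and 7.43 in Th3/Th3, 8.62, 8.89 and 8.98 in Th3/+, and 8.66, 9.02 and 9.25 in wild type, and fell by 1.83 (adjusted p = 0.000643). Dmxl1, for a rabconnectin that joins V1 to V0, fell by 0.81 (adjusted p = 0.0164), with adjusted p = 0.058 without wild type replicate 2 and 0.0651 without wild type replicate 3. The means of the other 6 were higher in Th3/Th3 without passing, and the median over the 8 was 0.19. Among them Tmem199, for an assembly factor, gave 0.98 (adjusted p = 0.0908), Ccdc115, for its partner, 0.49 (adjusted p = 0.0519) and Vma21, an assembly chaperone, 0.52 (adjusted p = 0.23), genes singled out after their values were seen. Against Th3/+ cells Ccdc115 was called (0.67, adjusted p = 0.0209), but not without Th3/Th3 replicate 1 and Th3/+ replicate 1 together (0.111).

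Other hydrolases and cofactors had 2 genes higher and 1 lower of 22 tested. This was 13.6% called against 12.3% of all probe sets, a share near the background. Lgmn, for legumain, which cleaves cathepsins during their maturation, had 6.00, 5.74 and 6.14 in Th3/Th3, 7.56, 7.63 and 7.41 in Th3/+, and 7.26, 7.85 and 7.40 in wild type. It fell by 1.54 (adjusted p = 0.000721), and the macrophage markers fell in the same arrays, whose part in it was not tested. Gla (alpha-galactosidase A) rose by 0.96 (adjusted p = 0.00342) and Smpd1 (acid sphingomyelinase) by 0.77 (adjusted p = 0.0334). Other membrane proteins and transporters had 3 genes higher and 2 lower of 23 (21.7% called). Ostm1, partner of the lysosomal chloride exchanger, rose by 1.35 (adjusted p = 0.00167) and Lmbrd1, which serves cobalamin export, by 1.28 (adjusted p = 0.00828), while the cation channel gene Tpcn1 fell by 1.39 (adjusted p = 0.00204). Laptm4a rose by 0.41 (adjusted p = 0.018). Without wild type replicate 2 or 3, Laptm4a (adjusted p = 0.056 and 0.0508) and Smpd1 (0.107 and 0.102) lost their calls, and Smpd1 also did without Th3/Th3 replicate 1 (0.0568) or 3 (0.102) or Th3/+ replicate 2 (0.0554) or 3 (0.0537), and without both arrays that stood apart (0.0739). Slc11a2, a metal transporter and the other gene called lower, had an adjusted p of 0.0693 without those arrays, 0.0583 without Th3/Th3 replicate 1 and 0.0553 without Th3/Th3 replicate 2. The median change over each of these lists was near that of all probe sets, at 0 and 0.05.

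Of genes for sorting enzymes to the lysosome 1 of 11 was called (9.09%, against 12.3% of all probe sets). It was Ap3b1, a subunit of the AP-3 adaptor, which rose by 0.66 (adjusted p = 0.0204). Of 15 genes for fusion with the lysosome 2 were called (13.3%). Vps33a, of the HOPS tether, rose by 0.71 (adjusted p = 0.039) and the SNARE gene Vamp8 fell by 0.39 (adjusted p = 0.00933). By their means 11 of the 15 were higher in Th3/Th3, and the median was 0.32. The number of fusion genes called higher was 5 without Th3/Th3 replicate 1 and Th3/+ replicate 1 together, and 0 to 2 without 1 array. Ap3b1 was no longer called without Th3/Th3 replicate 3 (adjusted p = 0.0581) or wild type replicate 1 (0.0736) or 3 (0.0667), and Vps33a without Th3/Th3 replicate 1 or 3, Th3/+ replicate 3 or any wild type replicate (0.0613 to 0.119). In the TFEB list 1 of 6 was called (16.7%). It was Flcn, for folliculin, which acts on Rag GTPases, and it rose by 0.97 (adjusted p = 0.00599). The shares called in the sorting, fusion and TFEB lists lay near that of all probe sets. Tfeb and Tfe3, singled out after their values were seen because they bind the motif shown above, gave -0.02 (adjusted p = 0.951) and 0.31 (adjusted p = 0.305). Tfeb signal lay between 4.57 and 5.11 on all arrays, close to the array medians.

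The list for lysosomal nutrient sensing, the machinery with which the V-ATPase interacts, had 5 genes higher and 2 lower of 15 tested, 46.7% called against 12.3% of all probe sets. Genes of the Ragulator complex, which anchors Rag GTPases to the lysosome, made up 4 of the 5 that rose. Lamtor1 had 9.39, 9.00 and 8.81 in Th3/Th3, 7.65, 8.01 and 8.03 in Th3/+, and 8.24, 7.88 and 7.54 in wild type, a rise of 1.18 (adjusted p = 0.00764). Lamtor3 rose by 0.74 (adjusted p = 0.00314) and Lamtor5 by 0.70 (adjusted p = 0.00673), and Lamtor2 also passed. The GTPase gene Rragc rose by 0.67 (adjusted p = 0.00793), while its relative Rragd and Rptor, for the mTORC1 subunit raptor, fell. Lamtor2 did not pass without Th3/Th3 replicate 2 or 3 or wild type replicate 2 or 3 (adjusted p = 0.0532 to 0.074), Rragd without Th3/Th3 replicate 1 or 2 or wild type replicate 1 or 3 (0.0714 to 0.104), and Rptor without any 1 of the 9 arrays (0.0506 to 0.137). Without both arrays that stood apart, the adjusted p was 0.0977 for Rragd and 0.0764 for Rptor.

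**Figure D4:**
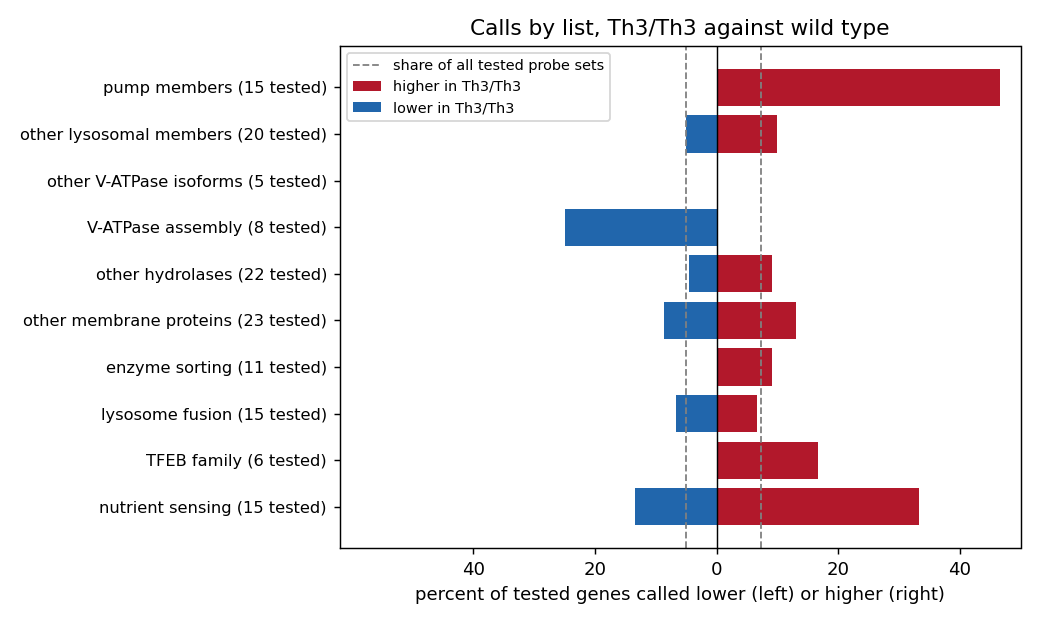
Percent of tested genes called in Th3/Th3 against wild type (x axis; higher to the right, lower to the left of 0) for the pump genes, the other lysosomal genes and the 8 related lists; dashed lines mark the share of all tested probe sets, 7.31% higher and 4.98% lower. The pump bar reaches 46.7% to the right with nothing to the left, and the nutrient sensing list has calls on both sides.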

How the data were processed

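Per the labels' protocols, RNA was amplified, labelled with biotin and hybridized to whole-transcript arrays. The authors deposited 1 log2 value per probe set and array (a log2 scale by the range of the values). MAS5 is named, per the submitters' processing notes, with no version; how probes were summarised and background was corrected is not given in the sources used here. These deposited log2 values were used unchanged. Genes were named through the platform annotation: of 28939 probe sets outside 6617 taken as controls, 21789 had 1 symbol, 1621 several and 5529 none listed. A probe set was kept where at least 3 of 9 arrays had it above their 40th percentile (17742 probe sets). Genotype means were estimated from the 9 arrays together in limma 3.58.1 under R 4.3.3, by lmFit and eBayes with a trend. The 4 contrasts were two-sided, with Benjamini-Hochberg adjustment over all 17742, and a call needed an adjusted p under 0.05.

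All members are named. From each related list up to 4 genes with the smallest adjusted p are named, or the 2 with the smallest p where none passed. Beyond this rule the text names Slc11a2, Lamtor2, Rragd and Rptor, the other genes called in their lists. It also names Vma21, Tmem199, Ccdc115, Tfeb and Tfe3, singled out after their values were seen. The members and lists were chosen with earlier results of these data known. Marker lists were also read for hepatoblasts (0 of 8 tested genes called), megakaryocytes (1 of 7, lower), granulocytes and mast cells (0 of 6), endothelium and stroma (0 of 5) and lymphoid cells (0 of 1). Over all probe sets 12.3% were called in Th3/Th3 against wild type. Nothing in the labels shows separate litters, so p-values measure the spread between these samples; an exact test of 3 against 3 cannot go below 0.1. Arrays have no read depth, and their number limits the precision. On simulated data over 17742 probe sets for Th3/Th3 against wild type, 50 probe sets were changed at each fold. Of these, 40% of 1.5-fold, 78% of 2-fold, 94% of 3-fold and 100% of 4-fold changes were recovered, with 6 unchanged probe sets among 162 calls. In the data 2181 probe sets were called, and the adjustment depends on the share changed, so recovery there can differ. Alternatives changed the filter, scaling, variance model, control block, probe set rule, arrays in the fit and the replicate block.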

Additional observations from a re-analysis of the deposited data

How the results depend on the processing

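Across 20 alternatives to the processing, 9 of which left out 1 array, 6 of the 10 genes called in Th3/Th3 against wild type (Atp6v1a, Atp6v1f, Atp6v1h, Ctsb, Ctsd and Lamp1) kept their call and direction, with a highest adjusted p of 0.0447. The other 4 kept their direction. Without 1 array, 6 to 10 members were called in Th3/Th3 against wild type, of which 1 to 2 were lower, and 3 to 6 in Th3/Th3 against Th3/+. Over all probe sets 8.19% to 13% and 3.35% to 7.99% were called in these fits. Pump genes called higher numbered 3 to 7, with 3 without wild type replicate 1 and 4 without wild type replicate 2, and they numbered 4 when only the arrays of the genotypes compared were fitted. In those fits 8.47%, 8.19% and 9.07% of all probe sets were called in either direction. The excess of the pump's median change over that of the other lysosomal genes, 0.36, ranged from 0.27 to 0.50 without 1 array. Without Th3/+ replicate 1 and Th3/Th3 replicate 1 together, 2 members were called lower, Atp6ap1 being added, and Npc1 was added among those higher. In Th3/+ against wild type and against the midpoint 0 members were called under each alternative. With the replicate number as a block, 11 members were called in Th3/Th3 against wild type (9 shared: Atp6v1d was lost at adjusted p = 0.0637, and Atp6v1b2 and Lamp2 were gained at 0.008 and 0.0341) and 7 in Th3/Th3 against Th3/+ (6 shared). With this block 13.9% and 8.53% of all probe sets were called. Nothing in the labels says that the numbers pair the samples, and the main fit did not use them. Yet 6 of 9 same-numbered pairs correlated above 0.1 (-0.125 to 0.355). In 13 of 18 comparisons of an array with another genotype, the array's own number gave the highest value. A spread shared by number may thus be present, which the main fit does not take into account. Among uncalled genes the sign changed for Atp6v0a2 (0.33 with the mean of its probe sets), for Tpp1 (-0.08 with quantile normalization), and without 1 array for Tpp1 (-0.06 to 0.09), Glb1 (-0.07 to 0.18) and Neu1 (-0.03 to 0.07). Of 21 related genes called, 12 kept their call under all alternatives, and among the others Rptor, Smpd1 and Vps33a lost it under 15, 11 and 9. The cause of these changes was not tested.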
